A study of Mus musculus with 4 samples.

Results

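Heat shock proteins and their cochaperones were examined in hippocampal RNA of mice that had undergone global cerebral ischemia (GCI). They were taken by gene symbol: HSP90, HSP70, HSP110 and small heat shock proteins, J proteins (Dnaja, Dnajb and Dnajc), BAG proteins, subunits of the chaperonins and a few partners, 95 of the 22609 genes listed. Of these, 86 passed a filter on low counts and entered the test, 6 more had between 1 and 11 reads in their fullest library, and Dnajb7, Dnajb8 and Dnajc5g had 0 reads in all 4 libraries. A count of 0 allows up to 0.171 CPM (reads relative to library size) in the shallowest library, taking 3 reads as the floor, for counting error only. FLOXED mice (2 libraries) were compared with PELP1 FBKO mice (2 libraries), forebrain knockouts of the estrogen receptor coregulator PELP1. Both genotypes were of the C57BL/6 strain, were ovariectomized, carried estradiol (E2) mini pumps, underwent GCI and were sampled at 24 h of reperfusion. The Cre driver, the animals' age and whether a library pooled animals are not given in the sources used here. No library analysed here came from animals without ischemia or without estradiol, so a genotype difference already there before either cannot be told apart from one that followed.

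Chaperones hold unfolded proteins and help them fold. HSP70 binds exposed hydrophobic stretches, J proteins deliver the client and start ATP hydrolysis, and HSP110 and BAG proteins exchange the nucleotide. HSP90 finishes the folding of kinases and steroid receptors, the estrogen receptor among them, while the chaperonins CCT (cytosol) and HSP60 with HSP10 (mitochondria) enclose the client in a chamber. Protein damage frees the transcription factor HSF1, which binds inverted repeats of GAA in the promoters of inducible chaperone genes, and ischemia is a known inducer of this response in the hippocampus.

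Between 17524594 and 22447658 reads per library were assigned to genes. Pelp1, the targeted gene, measured 26.7 and 26.3 CPM in FLOXED against 18.0 and 17.3 CPM in PELP1 FBKO, for a log2 fold change of -0.59 (SE 0.149, edgeR quasi-likelihood adjusted p = 0.130). CPM values are scaled by edgeR's TMM factors throughout, and each log2 fold change is PELP1 FBKO minus FLOXED. Markers of hippocampal CA1 pyramidal cells were present in every library, with a summed level of 732.8 and 871 CPM in FLOXED and of 573 and 483 CPM in PELP1 FBKO, and all 7 lay on the lower side. Pan-neuronal markers were split, 4 lower and 4 higher. All 10 oligodendrocyte, 11 astrocyte, 9 microglia and 8 endothelial markers lay on the higher side, and of 5 tested choroid plexus markers 3 lay lower. The summed choroid plexus level was highest in FLOXED 1, at 350.5 CPM. It was 97.85 CPM in FLOXED 2, 51.64 CPM in PELP1 FBKO 1 and 62.89 CPM in PELP1 FBKO 2. No marker of these lists was at 0 in any library. In bulk tissue, fewer cells of a type and less RNA per cell cannot be told apart, and the part of these cell types in the results was not tested.

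Most genes of the cytosolic HSP90 system and both chaperonins stood lower in PELP1 FBKO, while the J proteins were split and the inducible HSP70 and small HSP genes differed widely between libraries of 1 genotype. Of the 86 tested members, 60 had a negative log2 fold change and 26 a positive one (50% of all tested genes lay on either side), with a median of -0.14 beside 0.00015 for all 14978 tested genes. None passed the threshold of 0.05 (edgeR quasi-likelihood test, Benjamini-Hochberg adjustment over all tested genes), nor did any other gene (0% called in either direction). At an adjusted p under 0.10, 1 member was lower (Hsp90aa1, adjusted p = 0.0935), against 0.394% of all tested genes, and 0 were higher, against 1.56%. At an unadjusted p under 0.05, 18 members (20.9%) were lower, against 5.55% of all tested genes, and 2 members (2.33%) were higher, against 10.1%. DESeq2, another count test, called 9 members lower and 0 higher at an adjusted p under 0.05, against 0.895% and 2.2% of the genes it gave an adjusted p. The libraries of the genotypes did not overlap in 37 members on the lower side, against 23% of all tested genes, and in 9 on the higher side, against 25.4%. Without PELP1 FBKO 1 the 18 lower members became 9, beside 3.26% of all genes, and without FLOXED 2 they became 28, beside 12.2%.

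**Figure D1:**
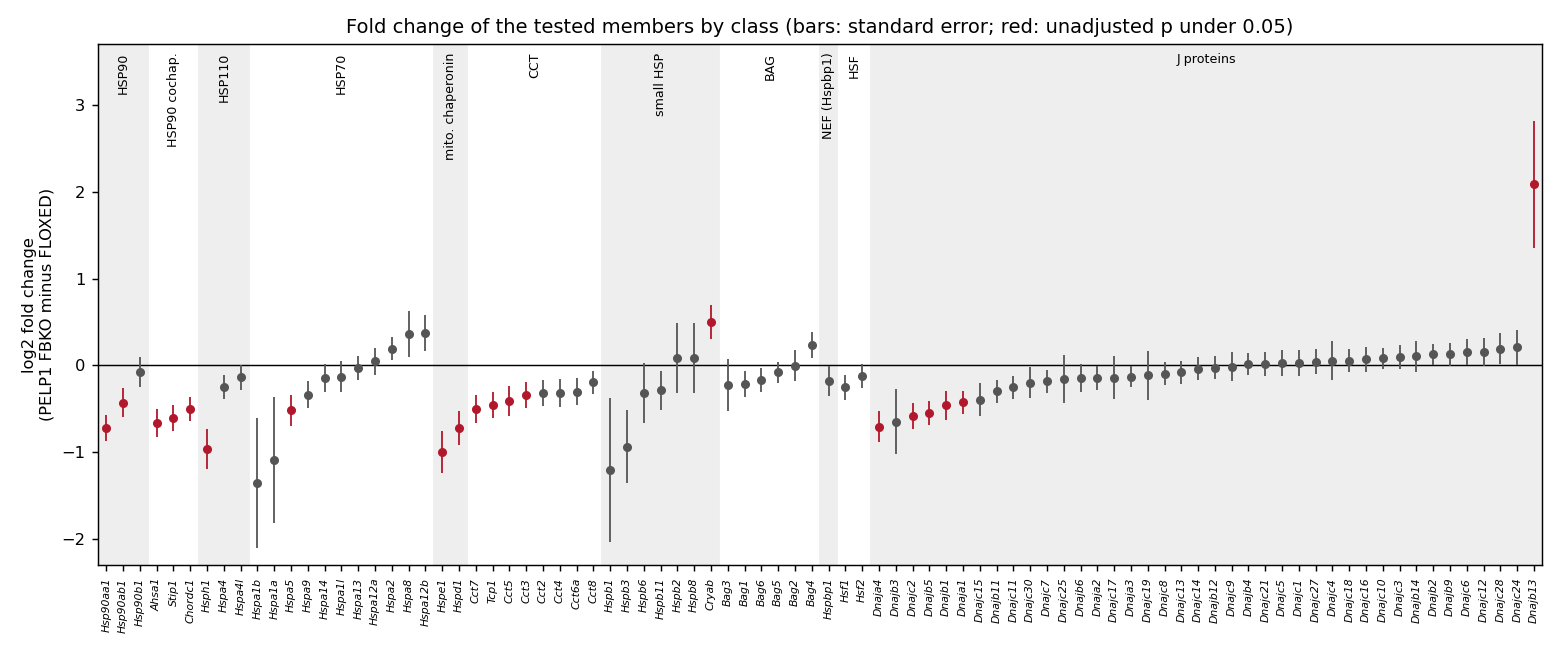
Log2 fold change (y axis, PELP1 FBKO minus FLOXED) of the 86 tested members, grouped by class along the x axis. Points are edgeR estimates, bars are standard errors, and red points have an unadjusted p under 0.05. All 8 CCT subunits, all 3 HSP90 genes and all 3 HSP90 cochaperones lie below 0, while the 40 J proteins spread on both sides.

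Hsp90ab1, the constitutive cytosolic HSP90, was the most abundant member per length, with a mean level of 910.2 CPM per kb of transcript, ahead of Cct5 at 178 and Hsph1 at 156 CPM per kb. Hsp90ab1 measured 2686 and 2581 CPM in FLOXED against 1953 and 1955 CPM in PELP1 FBKO. Both PELP1 FBKO libraries lay below both FLOXED libraries, with a log2 fold change of -0.43 (SE 0.166, edgeR adjusted p = 0.268; DESeq2 adjusted p = 0.0497, the lowest of 13 alternatives, which reached 0.705). Hsp90aa1, the inducible cytosolic form, measured 411 and 389.7 CPM in FLOXED against 219 and 267 CPM in PELP1 FBKO. Its groups were apart as well, with a log2 fold change of -0.72 (SE 0.152, edgeR adjusted p = 0.0935, range over 13 alternatives 0.000653 to 0.313). Of the 50-base windows in its longest transcript, 58.5% also occur in a transcript of another gene, and reads that aligned to several places were not counted. Hsp90b1, the HSP90 of the endoplasmic reticulum (ER), measured 414 and 516 CPM in FLOXED against 397 and 483 CPM in PELP1 FBKO. Its libraries overlapped, with a log2 fold change of -0.08 (SE 0.173, edgeR adjusted p = 0.871). Summed over the class, PELP1 FBKO 1 held 73.4% and PELP1 FBKO 2 77.3% of the FLOXED mean.

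The HSP90 cochaperones of the set lay lower too. Ahsa1, which speeds HSP90's ATPase cycle, measured 280.1 and 221 CPM in FLOXED against 147 and 169 CPM in PELP1 FBKO, for a log2 fold change of -0.67 (SE 0.161, edgeR adjusted p = 0.118, range over 13 alternatives 0.00599 to 0.369). Stip1, which bridges HSP70 and HSP90, measured 370.2 and 333 CPM in FLOXED against 210.4 and 252 CPM in PELP1 FBKO, for a log2 fold change of -0.61 (SE 0.151, edgeR adjusted p = 0.127). Chordc1, a heat-inducible protein that binds HSP90, measured 99.97 and 107 CPM in FLOXED against 67.8 and 78.8 CPM in PELP1 FBKO, for a log2 fold change of -0.50 (SE 0.135, edgeR adjusted p = 0.146). In each of the 3 genes the highest PELP1 FBKO library lay below the lowest FLOXED library, and PELP1 FBKO 1 was the lowest. Of all tested genes, 23% were lower without overlap, and in 26.1% PELP1 FBKO 1 was the lowest library. The summed level of the 3 cochaperones in PELP1 FBKO was 65.5% of that in FLOXED.

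Among the HSP110 genes, which act as nucleotide exchange factors of HSP70, Hsph1 had the largest difference. Hsph1, the heat-inducible HSP105, measured 1039.8 and 923 CPM in FLOXED against 386 and 622 CPM in PELP1 FBKO. Both PELP1 FBKO libraries were lower, PELP1 FBKO 1 more so, and the log2 fold change was -0.96 (SE 0.230, edgeR adjusted p = 0.117). It was -0.68 without PELP1 FBKO 1 (adjusted p = 0.0492), -1.35 without PELP1 FBKO 2 (adjusted p = 7.7e-07) and -0.87 without FLOXED 1 (adjusted p = 0.419), and over 13 alternatives the adjusted p ranged from 7.7e-07 to 0.419. Hspa4, the constitutive HSP110 of many tissues, measured 421 and 428 CPM in FLOXED against 344 and 371 CPM in PELP1 FBKO, without overlap, with a log2 fold change of -0.25 (SE 0.138, edgeR adjusted p = 0.427). Hspa4l, its close relative, had 114 and 137 CPM in FLOXED and 116 and 113 CPM in PELP1 FBKO, which overlapped (log2 fold change -0.14, SE 0.140).

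**Figure D2:**
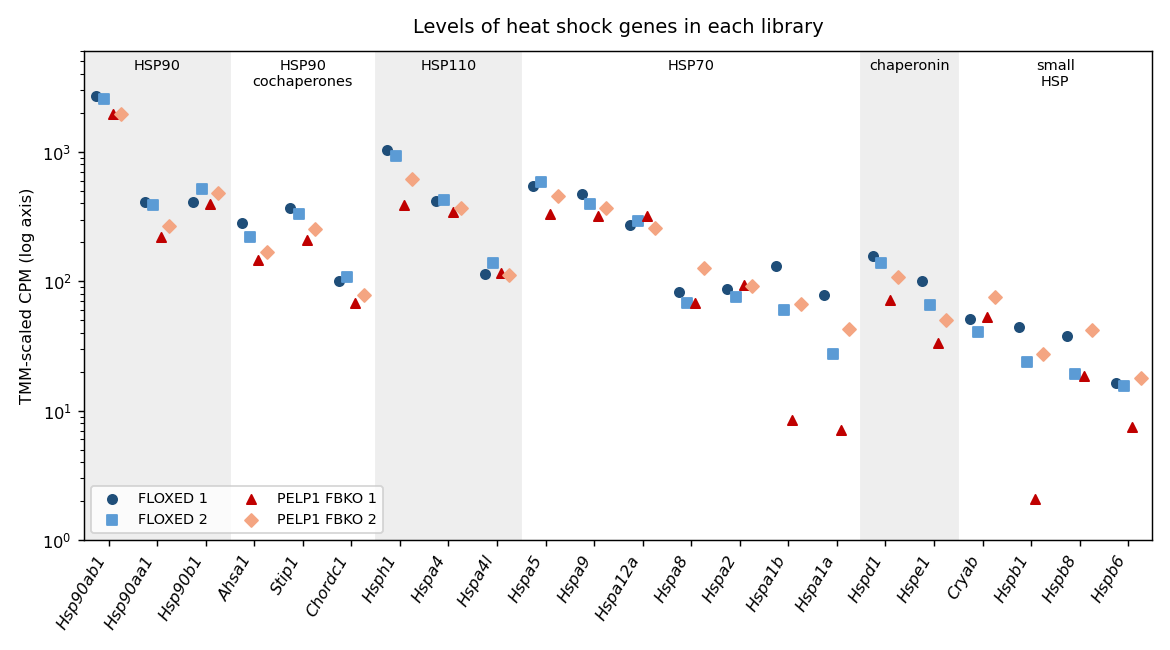
TMM-scaled CPM (y axis, log scale) of members of the HSP90, HSP110, HSP70, mitochondrial chaperonin and small HSP classes and of the HSP90 cochaperones (x axis), with 1 point per library. Hsp90aa1 and Hsph1 show both PELP1 FBKO libraries below both FLOXED libraries, while for Hspa1b, Hspa1a and Hspb1 the library PELP1 FBKO 1 sits far below the other 3.

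The inducible HSP70 genes varied widely within a genotype. Hspa1b measured 132 and 60.3 CPM in FLOXED against 8.43 and 66.8 CPM in PELP1 FBKO, and Hspa1a measured 79.0 and 27.6 CPM in FLOXED against 7.07 and 43.0 CPM in PELP1 FBKO. PELP1 FBKO 2 lay between the FLOXED libraries in both genes, and PELP1 FBKO 1 lay 7.92-fold (Hspa1b) and 6.08-fold (Hspa1a) below PELP1 FBKO 2. The genes are near copies, with 62.3% (Hspa1b) and 66.3% (Hspa1a) of 50-base windows found in another gene. Reads that aligned to several places were not counted, so the counted levels are partial ones. The sum of both genes, likewise partial, was 211 and 87.9 CPM in FLOXED and 15.5 and 109.8 CPM in PELP1 FBKO. Log2 fold changes were -1.36 (SE 0.748, edgeR adjusted p = 0.425) for Hspa1b and -1.09 (SE 0.722, edgeR adjusted p = 0.508) for Hspa1a. Without PELP1 FBKO 1 they were -0.54 and -0.33, without FLOXED 1 they were -0.69 and -0.15, and without PELP1 FBKO 2 they were -3.51 (adjusted p = 4.42e-27) and -2.91 (adjusted p = 2.69e-18), while over all 13 alternatives their adjusted p reached 0.863 and 0.975.

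The constitutive HSP70 genes did not show gaps of that size. Hspa5 (BiP), the HSP70 of the ER, measured 545 and 582.2 CPM in FLOXED against 334 and 453 CPM in PELP1 FBKO, for a log2 fold change of -0.52 (SE 0.178, edgeR adjusted p = 0.226, and 0.0334 without PELP1 FBKO 2, the lowest of 13 alternatives). Without PELP1 FBKO 1 its log2 fold change was -0.33, with the highest adjusted p of the 13, 0.658. Hspa9 (mortalin), the HSP70 of the mitochondrial matrix, measured 470.2 and 399 CPM in FLOXED against 319 and 368 CPM in PELP1 FBKO, for a log2 fold change of -0.34 (SE 0.156, edgeR adjusted p = 0.347), or -0.22 without FLOXED 1. Neither gene overlapped between genotypes, and 23% of all tested genes were lower without overlap. PELP1 FBKO 1 was the lowest library in both, as in 26.1% of all tested genes. Hspa8 (HSC70), the main constitutive HSP70 of the cytosol, measured 83.0 and 68.0 CPM in FLOXED against 67.9 and 126 CPM in PELP1 FBKO, with overlap and a log2 fold change of 0.36 (SE 0.262). Since 52.7% of its 50-base windows occur in other genes, its counted level is a partial one. Hspa12b, an atypical HSP70 of endothelial cells, measured 5.93 and 7.20 CPM in FLOXED against 8.34 and 8.72 CPM in PELP1 FBKO, higher without overlap (log2 fold change 0.37, SE 0.205, edgeR adjusted p = 0.423). Endothelial markers moved the same way, 8 of 8 on the higher side, with summed levels of 132 and 186 CPM in FLOXED and 231 and 224 CPM in PELP1 FBKO. The part of endothelial cells in the level of Hspa12b was not tested. Hspa2, best known from the testis, also lay higher without overlap (log2 fold change 0.19, SE 0.133). Hspa12a, Hspa13, Hspa14 and Hspa1l had log2 fold changes of 0.05, -0.03, -0.15 and -0.13, each smaller than its SE. Of the 50-base windows of Hspa1l, 71.4% occur in other genes, so its counted level is a partial one too.

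Small HSPs hold unfolded proteins without ATP. In 5 of the 7 tested genes PELP1 FBKO 1 was the lowest library, beside 57% of the tested members and 26.1% of all tested genes. Hspb1 (HSP25), a stress-inducible small HSP, measured 44.1 and 23.8 CPM in FLOXED against 2.09 and 27.4 CPM in PELP1 FBKO, a 13.1-fold gap between the PELP1 FBKO libraries. Its log2 fold change was -1.21 (SE 0.828, edgeR adjusted p = 0.520), -0.33 without PELP1 FBKO 1, -0.70 without FLOXED 1 and -4.02 without PELP1 FBKO 2 (adjusted p = 1.04e-27, the lowest of 12 alternatives, which reached 0.888). Of its 50-base windows 51.6% also occur in another gene. Hspb8, which works with Bag3, measured 38.1 and 19.3 CPM in FLOXED against 18.7 and 42.2 CPM in PELP1 FBKO (log2 fold change 0.09, SE 0.403). Hspb6 measured 16.3 and 15.5 CPM in FLOXED against 7.53 and 18.0 CPM in PELP1 FBKO, for a log2 fold change of -0.32 (SE 0.348), with an adjusted p of 0.00767 without PELP1 FBKO 2, the lowest of 13 alternatives, which reached 0.945. Hspb1, Hspb6 and Hspb8 overlapped between genotypes, with PELP1 FBKO 1 the lowest library in each, though in Hspb8 it was nearly level with FLOXED 2.

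Cryab, the alpha-B crystallin of oligodendrocytes and astrocytes, lay on the other side. It measured 50.9 and 40.6 CPM in FLOXED against 53.4 and 75.9 CPM in PELP1 FBKO, for a log2 fold change of 0.50 (SE 0.195, edgeR adjusted p = 0.274). The lowest PELP1 FBKO library lay just above the highest FLOXED library, and the log2 fold change was 0.23 without PELP1 FBKO 2 and 0.33 without FLOXED 2. With offsets for transcript length and GC content its adjusted p was 0.0436, the lowest of 13 alternatives, which reached 0.854. Summed oligodendrocyte markers also lay higher, at 2985 and 3832 CPM in FLOXED and 5950 and 6400 CPM in PELP1 FBKO. Astrocyte markers did too, at 6343 and 7269 CPM in FLOXED and 8255 and 10260 CPM in PELP1 FBKO. From FLOXED 1 to FLOXED 2 both sums rose while Cryab fell. The part of these cell types in the level of Cryab was not tested. Hspb2, whose span overlaps that of Cryab, had between 16 and 19 reads per library (log2 fold change 0.08, SE 0.404). Hspb3, a small HSP of muscle, had 48, 38, 18 and 31 reads in the order FLOXED 1, FLOXED 2, PELP1 FBKO 1 and PELP1 FBKO 2, lower without overlap (log2 fold change -0.94, SE 0.422, edgeR adjusted p = 0.337). Hspb11, which belongs to a ciliary transport complex, had a log2 fold change of -0.29 (SE 0.220). Hspb7 and Hspb9, with at most 11 and 4 reads, were not tested.

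Both genes of the mitochondrial chaperonin lay lower. Hspe1 (HSP10), its lid, measured 101 and 65.8 CPM in FLOXED against 33.5 and 49.9 CPM in PELP1 FBKO, for a log2 fold change of -0.998 (SE 0.245, edgeR adjusted p = 0.125, range over 13 alternatives 8.18e-05 to 0.418). Hspd1 (HSP60), the chamber, measured 156 and 138 CPM in FLOXED against 71.1 and 108 CPM in PELP1 FBKO, for a log2 fold change of -0.72 (SE 0.197, edgeR adjusted p = 0.148, range over 13 alternatives 0.00274 to 0.445). In both genes the genotypes were apart, and 23% of all tested genes were lower without overlap. The libraries of both ran FLOXED 1, FLOXED 2, PELP1 FBKO 2, PELP1 FBKO 1 from high to low, as in 9.17% of all tested genes. Without PELP1 FBKO 1 the log2 fold changes were -0.76 for Hspe1 and -0.47 for Hspd1, and without FLOXED 1 that of Hspe1 was -0.66. The spans of the pair overlap in RefSeq, and 44.8% of the 50-base windows of Hspd1 occur in another gene.

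All 8 tested subunits of the CCT ring, which folds actin and tubulin, lay without overlap on the lower side in PELP1 FBKO, as did 23% of all tested genes, and their median log2 fold change was -0.33. Cct7 measured 389.6 and 318 CPM in FLOXED against 233 and 268 CPM in PELP1 FBKO (log2 fold change -0.50, SE 0.159, edgeR adjusted p = 0.195). Tcp1, the alpha subunit, measured 284 and 244 CPM in FLOXED against 178 and 208 CPM in PELP1 FBKO (log2 fold change -0.45, SE 0.149, edgeR adjusted p = 0.208). The log2 fold changes of the other subunits were -0.41 (SE 0.171) for Cct5, -0.34 (SE 0.146) for Cct3, -0.32 (SE 0.151) for Cct2, -0.31 (SE 0.161) for Cct4, -0.30 (SE 0.152) for Cct6a and -0.20 (SE 0.138) for Cct8. Cct7, Tcp1, Cct5 and Cct3 had an unadjusted p under 0.05, and none of the 8 passed after adjustment in edgeR or DESeq2. Each subunit had the same order of libraries, FLOXED 1, FLOXED 2, PELP1 FBKO 2, PELP1 FBKO 1 from high to low, an order seen in 27 of the 86 tested members (31.4%) and in 9.17% of all tested genes. Summed over the class, FLOXED 1 held 108% and FLOXED 2 91.8% of the FLOXED mean, against 83.9% in PELP1 FBKO 2 and 72.4% in PELP1 FBKO 1. The gap between FLOXED 2 and PELP1 FBKO 2 was thus smaller than the gap between the FLOXED libraries, and without FLOXED 1 the median was -0.21, with -0.21 for Cct5 and -0.22 for Cct3. Cct6b, a testis form, had at most 6 reads and Cct8l1 at most 3. The spans of Tcp1, Cct6a, Cct7 and Cct8 overlap another gene in RefSeq, and the strand setting of the counting is not given in the sources used here.

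**Figure D3:**
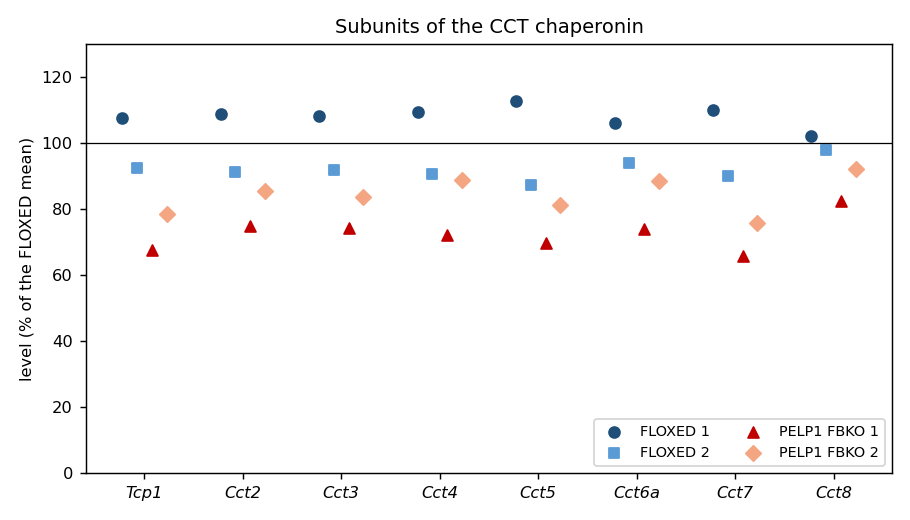
Level of the 8 tested CCT subunits (x axis) in each library as a percentage of the mean of the FLOXED libraries (y axis, from 0). FLOXED 1 is the highest and PELP1 FBKO 1 the lowest library for each subunit, and the line marks 100%.

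Promoters of the members were searched for the letters of the heat shock element. RefSeq windows (GRCm38.p6, 250 bases before to 50 after a start) were found by symbol for 77 of the 95 members. The 3-unit element was written as GAANNTTCNNGAA or TTCNNGAANNTTC, each the reverse complement of the other, so both strands were covered. It occurred in the windows of 5 members (6.49%), against 0.662% of all 27025 genes with a window. The stretches follow, 5′ to 3′ on the gene's strand, with the element in capitals, and are shown because Hspe1, Hspd1, Hsph1 and Chordc1 are among the members with an unadjusted p under 0.05.
Hspe1, chr1:55088053-55088082, plus strand: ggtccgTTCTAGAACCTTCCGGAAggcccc
Hspd1, chr1:55088053-55088082, minus strand: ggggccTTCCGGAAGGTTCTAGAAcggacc
Hsph1, chr5:149636279-149636308, minus strand: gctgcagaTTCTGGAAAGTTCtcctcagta
Chordc1, chr9:18292260-18292289, plus strand: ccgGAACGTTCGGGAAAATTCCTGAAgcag
Dnajb6, chr5:29735844-29735873, plus strand: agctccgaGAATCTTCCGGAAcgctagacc

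Hspe1 and Hspd1 are read in opposite directions and hold the same 18-base run, so the 5 genes have 4 separate stretches. In Hspe1 the run begins 89 bases before the start, and in Chordc1 a 23-base run of overlapping matches begins 4 bases before it. In Hsph1 the match lies 15 to 27 or 36 to 48 bases past the start, depending on which start is used, and so in transcribed sequence. The 5 genes had a median log2 fold change of -0.72, all on the lower side. The 65 tested members with a window but without the 3-unit element had a median of -0.14, with 46 lower and 19 higher. None of the 8 HSP70 genes with a window held the 3-unit element, Hspa1a and Hspa1b among them. Only 1 HSP90 gene had a window. Dnajb6, a J protein known for keeping aggregation-prone proteins soluble, had -0.14 (SE 0.162). Of its 50-base windows, 42.8% occur in other genes. Among all tested genes, the 67 with the element, the 5 members included, had a median of 0.0071, with 32 lower and 35 higher. At an unadjusted p under 0.05 (edgeR), 10 of the 67 were lower and 6 higher, against 589 and 1065 of the 10488 without it. The shorter palindromes GAANNTTC and TTCNNGAA, which lie inside the longer element, occurred in 28.6% of members with a window against 17% of all genes with one. The 20 tested members that hold one had a median of -0.42 and the 50 without one -0.12, while over all tested genes the medians were 0.0099 and -0.0011. Such a match describes the letters of the window and was not tested as a binding site.

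J proteins, the largest class, were split. Of 40 tested, 22 had a negative and 18 a positive log2 fold change, with a median of -0.03, and at an unadjusted p under 0.05, 5 (12.5%) were lower and 1 (2.5%) was higher, beside 5.55% and 10.1% of all tested genes. All 4 Dnaja genes were lower without overlap (23% of all tested genes), and 12 of 25 Dnajc genes lay on the lower side, near the 50% of all tested genes. Dnaja4, a stress-inducible J protein of the cytosol, measured 139 and 101 CPM in FLOXED against 68.2 and 78.7 CPM in PELP1 FBKO, for a log2 fold change of -0.71 (SE 0.177, edgeR adjusted p = 0.128, range over 13 alternatives 0.0112 to 0.355). Dnaja1, its relative, measured 177 and 157 CPM in FLOXED against 118 and 131 CPM in PELP1 FBKO, with -0.43 (SE 0.136, edgeR adjusted p = 0.197). Dnajb1 (HSP40), a main J partner of inducible HSP70, measured 107 and 86.3 CPM in FLOXED against 62.9 and 78.0 CPM in PELP1 FBKO, with -0.46 (SE 0.164, edgeR adjusted p = 0.242). PELP1 FBKO 1 was the lowest library in all 3, as in 15 of 40 tested J proteins (37.5%) and 26.1% of all tested genes. None of the 3, which are among the J proteins with the smallest p, overlapped between genotypes. Without FLOXED 1 the log2 fold changes were -0.45 for Dnaja4 and -0.29 for Dnajb1. Of the 50-base windows of Dnaja4, 51.9% occur in another gene, and of those of Dnaja1 28.8% occur in other genes.

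Dnajb5 measured 223 and 226 CPM in FLOXED against 165 and 143 CPM in PELP1 FBKO, for a log2 fold change of -0.54 (SE 0.137, edgeR adjusted p = 0.127), and here PELP1 FBKO 2 was the lowest library. Dnajc2, a J protein bound to the ribosome, measured 55.0 and 49.8 CPM in FLOXED against 32.0 and 38.2 CPM in PELP1 FBKO, with -0.58 (SE 0.148, edgeR adjusted p = 0.133). Dnajb11 of the ER had -0.30 (SE 0.132) and Dnajc15 of the mitochondrial inner membrane -0.39 (SE 0.190), both with an unadjusted p above 0.05, and Dnajc15 went from -0.14 without FLOXED 1 to -0.62 without FLOXED 2. Dnajb13, a J protein of the ciliary axoneme, was the J protein higher at an unadjusted p under 0.05, with 1, 10, 17 and 33 reads in the order FLOXED 1, FLOXED 2, PELP1 FBKO 1 and PELP1 FBKO 2. It passed the low-count filter only through the PELP1 FBKO libraries, and its log2 fold change of 2.08 (SE 0.730, edgeR adjusted p = 0.234) went from 1.35 without FLOXED 1 to 4.23 without FLOXED 2. The J proteins most abundant per length were Dnaja2 (108 CPM per kb), Dnajc7 (99.5 CPM per kb) and Dnajc6 (69.1 CPM per kb), the last being auxilin, which helps uncoat clathrin vesicles in neurons. Their log2 fold changes were -0.14 (SE 0.137), -0.18 (SE 0.134) and 0.15 (SE 0.153). The untested J proteins Dnajc22 and Dnajc5b had at most 3 and 1 reads.

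Bag3, which links HSP70 to autophagy and is inducible by HSF1, measured 35.1 and 32.9 CPM in FLOXED against 18.7 and 39.3 CPM in PELP1 FBKO, with overlap and a log2 fold change of -0.23 (SE 0.299, edgeR adjusted p = 0.759). Without PELP1 FBKO 1 it was 0.19, and without PELP1 FBKO 2 it was -0.86 (adjusted p = 0.0411, the lowest of 13 alternatives, which reached 0.921). The other BAG genes had log2 fold changes of -0.21 (Bag1), -0.00266 (Bag2), 0.24 (Bag4), -0.08 (Bag5) and -0.17 (Bag6), none with an unadjusted p under 0.05. Hsf1, the factor itself, measured 41.3 and 42.3 CPM in FLOXED against 32.6 and 37.5 CPM in PELP1 FBKO, lower without overlap (log2 fold change -0.25, SE 0.141, edgeR adjusted p = 0.429). Hsf2 had -0.12 (SE 0.140), and the exchange factor Hspbp1 had -0.18 (SE 0.171), both with overlap.

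PELP1 FBKO 1 was the lowest of the 4 libraries in 49 of the 86 tested members (57%), against 26.1% of all tested genes. In 6 members, Hspb1, Hspa1b, Hspa1a, Hspb6, Hspb8 and Bag3, PELP1 FBKO 2 was more than 2-fold above PELP1 FBKO 1, a gap seen in 3.25% of all tested genes. All 6 hold a shorter palindrome in a promoter window, as do 28.6% of members with a window and 17% of all genes with one. This was noticed after their values were seen and was not tested. Of the 20 tested members that hold a palindrome, only these 6 had such a gap. In Hspa1a and Hspa1b, FLOXED 1 was also more than 2-fold above FLOXED 2, as in 1.18% of all tested genes. The median difference between the libraries of 1 genotype, on the log2 scale without regard to sign, was 0.22 in FLOXED and 0.19 in PELP1 FBKO over the members, beside 0.23 and 0.16 over all tested genes. The share of alignments set aside as not unique was highest in FLOXED 1 (47.7%) and lowest in PELP1 FBKO 1 (38.5%), with 40.4% for FLOXED 2 and 41.5% for PELP1 FBKO 2, and their part in these results was not tested.

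**Figure D4:**
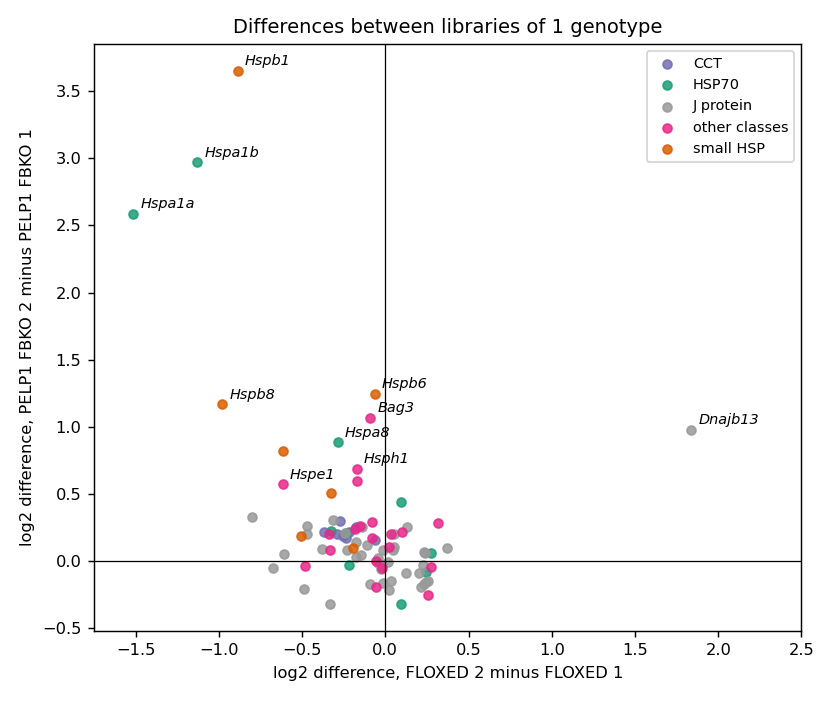
Difference between the libraries of 1 genotype for each tested member on the log2 scale, FLOXED 2 minus FLOXED 1 on the x axis and PELP1 FBKO 2 minus PELP1 FBKO 1 on the y axis, with points coloured by class. Hspb1, Hspa1b and Hspa1a lie in the upper left, high in FLOXED 1 and low in PELP1 FBKO 1, while most J proteins lie near the origin.

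Other chaperone and heat shock response genes, from a list of 41 that the symbol rule did not take, lay mostly on the same side. Of 40 tested, 35 had a negative log2 fold change and 5 a positive one, with a median of -0.19. None passed the threshold by edgeR or by DESeq2, and at an unadjusted p under 0.05 (edgeR) 10 (25%) were lower and 1 (2.5%), Hsf4, was higher, beside 5.55% and 10.1% of all tested genes. Ier5, an immediate early gene that feeds into HSF1 activity, measured 66.2 and 65.7 CPM in FLOXED against 44.4 and 47.5 CPM in PELP1 FBKO, for a log2 fold change of -0.52 (SE 0.127, edgeR adjusted p = 0.119). Ptges3 (p23), a cochaperone of HSP90 in steroid receptor complexes, had -0.55 (SE 0.176, edgeR adjusted p = 0.198), and Cacybp had -0.49 (SE 0.149, edgeR adjusted p = 0.180). Without PELP1 FBKO 1, and likewise without FLOXED 1, 2 of the list were lower at an unadjusted p under 0.05, beside 3.26% and 3.597% of all genes in those fits.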

How the data were processed

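The authors deposited raw read counts per gene symbol for 4 libraries of 50-base reads. The submitters' processing notes name the tools and the mm9 build, while the series text names a human build. Annotation and strand setting are not given in the sources used here. Summary rows of the counter entered no library size or test; reads in no gene were 14.7% to 15.7% of those placed uniquely. The labels do not tell whether replicates are different animals, and p-values therefore describe the spread among 4 libraries that may be technical. Replicates differed beyond sampling noise (chi-square per degree of freedom 23.3 in FLOXED and 17.4 in PELP1 FBKO).

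Genotypes were compared with edgeR 4.0.16, with TMM factors, filterByExpr and the quasi-likelihood F test, over 14978 genes with Benjamini-Hochberg adjustment; SE is the log2 fold change divided by the root of F. DESeq2 1.42.0, limma-voom (limma 3.58.1) and other settings were alternatives. Lengths and shared 50-base windows were computed on GENCODE vM21 transcripts, the longest per gene; 15 members shared over 20% of windows, and 35 of the 95 members have a RefSeq span that overlaps another gene. Members, lists (other chaperones, and markers of neurons, CA1 cells, astrocytes, oligodendrocytes, microglia, endothelium and choroid plexus) and tests were chosen with earlier results of these data known. Named by rule were the tested members outside the J proteins, the 8 J proteins with the smallest p and the 3 most abundant per length, the 4 other chaperones with the smallest p (1 is not reported here), untested members, and Pelp1. Dnajb6 and Hsf4 were named after their values were seen.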

Additional observations from a re-analysis of the deposited data

How the results depend on the processing

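Members called lower at an adjusted p under 0.05, 0 in the edgeR quasi-likelihood fit, numbered 9 by DESeq2, 10 by edgeR's exact test, 10 with offsets for length and GC content, 3 without a low-count filter and 7 with the replicate number as a block, where 0.895%, 1.32%, 0.808%, 0.439% and 1.2% of all genes were called lower. At an adjusted p under 0.10, 1 was lower (0.394% of all genes). Members called higher, likewise 0, numbered 1 by the exact test, 1 with the offsets and 1 with the replicate block, beside 3.75%, 1.62% and 2.58% of all genes. No member was called by limma-voom, with RLE factors, with the robust fit or with at least 50 reads in every library. The numbers 1 and 2 in the labels share no stated origin, and the correlation of same-numbered deviations was -0.118. With the numbers crossed, a pairing added after the data were seen, 8 members and 1 other chaperone were called lower (0.608% of all genes), and 28 members were lower at an unadjusted p under 0.05 (8.27% of all genes). At that unadjusted p, 29 members were lower with the offsets, where the share of all genes also grew, from 5.55% to 10.6%, and 1 was higher with at least 50 reads (9.72% of all genes). Of the other chaperones, 2 were called lower by the exact test, 1 with the offsets and 1 with the replicate block, and at the unadjusted p 16 were lower with the offsets and 5 with the replicate block (4.86% of all genes). With the offsets the median log2 fold change was -0.344 for HSP110 and -0.0813 for J proteins. Bag2 turned positive with at least 50 reads (0.0108) and with the offsets (0.0259), and Hspa12a turned negative with the offsets (-0.0784). The cause was not tested.

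Leaving out each library in turn gave 0 to 12 members called lower and 0 to 1 called higher, beside 0% to 2.12% and 0% to 2.99% of all genes. At an unadjusted p under 0.05, 9 to 28 were lower and 0 to 4 higher, beside 3.26% to 12.2% and 6.60% to 12.01% of all genes. With 1 library left in a genotype, 16 to 20 members were higher without overlap, beside 36.4% to 42% of all tested genes. Of the other chaperones 0 to 3 were called lower, and at the unadjusted p 2 to 15 were lower and 0 to 1 higher. The largest count, 12, came without PELP1 FBKO 2. Medians ranged from -0.242 to -0.116 over all members, -0.471 to -0.402 for HSP90, -0.157 to -0.0189 for BAG, -0.0746 to -0.0412 for J proteins, -0.279 to -0.114 for heat shock factors and -0.255 to -0.112 for other chaperones. Log2 fold changes that changed sign ranged from -0.127 to 0.0955 for Bag2, -0.861 to 0.192 for Bag3, -0.229 to 0.0779 for Hsp90b1, -0.140 to 0.199 for Hspa12a, -0.146 to 0.0904 for Hspa13, -0.313 to 0.0249 for Hspa14, -0.151 to 0.717 for Hspa8, -0.0389 to 0.189 for Hspb2, -1.08 to 0.163 for Hspb6, -0.613 to 0.655 for Hspb8 and -0.411 to 0.0802 for Hspbp1. The lone library left in a genotype was assumed to vary like the other genotype. With 2 libraries per genotype, differences of the size seen between libraries of 1 genotype could not be resolved.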
